A study of Mus musculus with 6 samples.

Results

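The MYC, MAX and MXD network was examined in induced germinal center B cells (iGBs) of Control and Prmt1-null mice. Prmt1 is the gene of a protein arginine methyltransferase. The 10 genes were taken by symbol (Myc, Mycn, Max, Mxd1, Mxd3, Mxd4, Mxi1, Mnt, Mga and Mlx) from the 39017 genes of an exon count table. The rule uses symbols and no measured value, but the network was picked for study with earlier results of these data known, so its tests are not free of selection. Splenic B cells of C57BL6/J mice were cultured in the presence of IL-4 on irradiated 40LB cells, a fibroblast feeder line that displays CD40L and secretes BAFF, and RNA was taken on day 3.5 after the feeders had been depleted with an antibody to H2Kd. IL-4 is listed at 5 ng/ml in the sample labels. The methods name a lower concentration. The 3 Control mice (1 male, 2 females) carried Cγ1-cre alone, and the 3 Prmt1-null mice (2 females, 1 male) carried Cγ1-cre together with a floxed Prmt1 allele pair (Prmt1 f/f). Both groups therefore carried Cre, which is expressed from the Cγ1 locus and so acts only in B cells that have been activated. Each library came from 1 mouse, and the p-values measure the spread between these mice. In such bulk RNA, fewer cells of a type and less RNA per cell cannot be told apart.

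MYC is a transcription factor of the basic helix-loop-helix leucine zipper class that binds DNA only as a dimer with MAX, preferentially at the E-box CACGTG, and raises genes of ribosome production, translation and metabolism. The MXD proteins (MXD1, MXD3, MXD4 and MXI1, also called MXD2) and MNT also dimerize with MAX, occupy the same E-boxes and recruit the SIN3-histone deacetylase corepressor, so that they oppose MYC. MGA joins MAX in a Polycomb complex known as PRC1.6, and MLX is a second dimer partner, shared by MXD1, MXD4, MNT and the glucose-responsive factor MondoA. In germinal centers, MYC is known for its brief induction in B cells selected by T cell help, and MXD proteins are known for replacing MYC on MAX as many cell types stop dividing and differentiate.

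The E-box that these dimers bind was itself found in the promoter windows of network genes, and those sequences are shown because they carry the motif that the network reads. RefSeq promoter windows of GRCm38 (mm10; 250 bases before to 50 bases after a transcription start) were at hand for 9 of the 10 genes, in 11 windows. Myc had no window and was not searched. CACGTG, which reads the same on both strands, occurred in the windows of Mxd4, Mnt, Mlx and Max, which is 4 of 9 genes (44.4%) and 4 of 11 windows (36.4%). It occurred in 7.15% of all 32851 windows and 8.09% of their genes, and in 9.55% of the 13041 windows and 11.3% of the genes among those tested here. Its first base lay 219 bases before the start of Mxd4, 123 before that of Mnt, 40 before that of Mlx and 3 before that of Max, where it spans the RefSeq start, which lies outside the GENCODE model of Max used for its position and length. These matches describe letters in a window and do not show binding. The 250 bases upstream of Mxd4, the member that changed (chr5:34187711-34187960, minus strand), and 56-base stretches around the E-boxes of Mnt (chr11:74830776-74830831, plus strand), Mlx (chr11:101087225-101087280, plus strand) and Max (chr12:76962221-76962276, minus strand) are given 5′ to 3′ on the strand of each gene, with the E-box in capitals.
Mxd4: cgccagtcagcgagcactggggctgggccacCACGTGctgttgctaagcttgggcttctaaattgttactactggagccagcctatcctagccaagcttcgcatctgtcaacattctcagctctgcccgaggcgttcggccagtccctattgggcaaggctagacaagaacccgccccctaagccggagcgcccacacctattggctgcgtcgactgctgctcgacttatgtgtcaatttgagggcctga
Mnt: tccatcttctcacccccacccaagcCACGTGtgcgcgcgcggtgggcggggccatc
Mlx: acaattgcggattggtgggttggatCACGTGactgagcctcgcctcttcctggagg
Max: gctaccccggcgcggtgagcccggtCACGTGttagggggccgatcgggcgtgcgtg

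The libraries held between 45343250 and 62774232 counts, and 9 of the 10 network genes were among the 18268 genes with enough counts to test. Prmt1, the targeted gene, measured 3964.5, 3924.5 and 4838 normalized counts in Control iGBs and 1744.5, 1477.7 and 1477.5 in Prmt1-null iGBs (log2 fold change -1.44, SE 0.095, adjusted p = 1.115e-05). Prmt1-null iGBs thus kept Prmt1 counts, with a mean of 1566.6 against 4242.3 in Control. The source of these remaining counts was not tested. Unless another tool is named, every adjusted p comes from the quasi-likelihood test of edgeR, adjusted over all genes tested by the Benjamini-Hochberg method. A gene was called at an adjusted p under 0.05 with a mean normalized count over 100, which held for 216 of the genes tested (1.18%). In Prmt1-null iGBs, 106 genes were called higher (0.58%) and 110 were called lower (0.602%). All 7 B cell markers were detected, with a sum of 6050 to 6430 CPM (counts scaled to the library total) in Control and 6410 to 6760 in Prmt1-null libraries. The 4 plasma cell (PC) markers in the table summed to 822 to 903 and 957 to 1040 CPM, so that this sum was higher in each Prmt1-null library than in any Control library. The 9 fibroblast feeder markers summed to 17.4 to 21.3 and 21.1 to 26.4 CPM, with Postn at 0 throughout. The 6 T cell markers gave 1.19 to 2.9 and 1.43 to 3.01 CPM, and the 5 myeloid markers in the table gave 3.51 to 8.42 and 3.72 to 7.81 CPM. The part of these markers in the results on network genes was not tested.

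Per base of exon, the network in iGBs was led by Mxd3, Myc and Max. This order depends on the length used, which joins all annotated exons of a gene (2369 bases for Mxd3, 8483 for Mxd4). By mean normalized count, without length, Mga (8802.3) and Max (7697) stood above Mxd3 (6483.4) and Myc (6161.4). Expressed as FPKM (counts scaled to the library size and to exon length), the level of Mxd3 was 46.7 ± 5.19 in Control and 52 ± 4.58 in Prmt1-null libraries (mean ± SD, n = 3 each, as for every mean given), that of Myc 40.5 ± 3.61 and 41.3 ± 1.64, and that of Max 39 ± 2.53 and 38.1 ± 0.712. These levels place the 3 genes at percentiles 92.5, 91.1 and 90.6 of the genes tested. Below them stood Mlx at 15.5 ± 0.544 FPKM in Control iGBs, Mga at 10.7 ± 0.761, Mxd4 at 8.53 ± 0.796, Mnt at 5.53 ± 0.857, Mxi1 at 3.16 ± 0.0716 and Mxd1 at 2.74 ± 0.0477. The order by group mean was the same in Prmt1-null iGBs. Neighbours in that order whose ranges over the 6 libraries overlapped were Mxd3 and Myc, Myc and Max, Mga and Mxd4, Mxd4 and Mnt, and Mxi1 and Mxd1, although Mxd3 exceeded Myc in 6 of 6 libraries and Myc exceeded Max in 5 of 6. Steps without overlap separated Max from Mlx, Mlx from Mga, Mnt from Mxi1 and Mxd1 from Mycn.

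**Figure D1:**
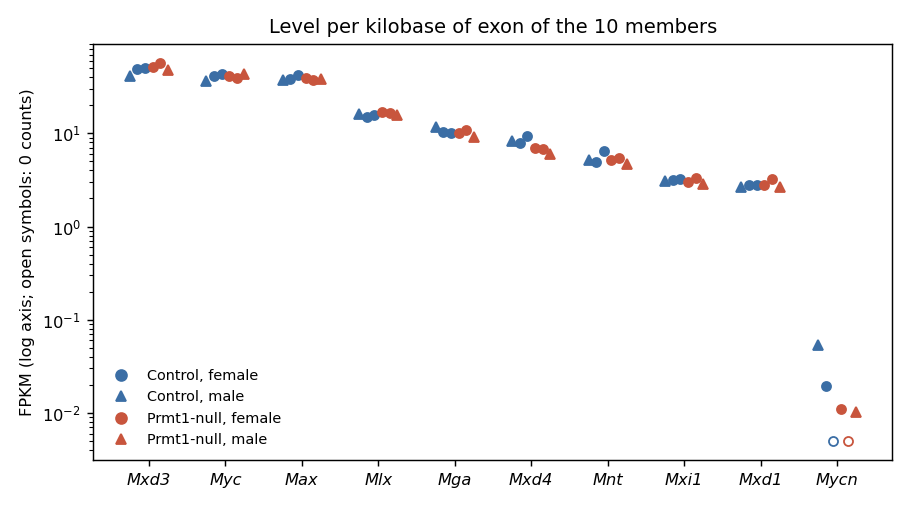
Level of each network gene per exon length (FPKM, log axis) in 3 Control and 3 Prmt1-null libraries (circles are females, triangles males); open symbols at the bottom are libraries with 0 counts. Mxd3, Myc and Max lie together at the top in both groups, Mxd4 is set lower in the 3 Prmt1-null libraries, and Mycn lies far under the rest.

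Mxd4 was lower in Prmt1-null iGBs, and it was the 1 member that passed the test. Mxd4, one of the 4 MXD repressors, measured 3867.3, 3735.7 and 4440.3 normalized counts in Control libraries and 3245.1, 3188.6 and 2840.5 in Prmt1-null libraries. The lowest Control library stood above the highest Prmt1-null library. The mean was thus 77% of that of Control (log2 fold change -0.38, SE 0.079, adjusted p = 0.03577), with a fold of 0.77 and a 95% interval from 0.685 to 0.866. The other 8 members tested had overlapping groups, with adjusted p-values from 0.4504 to 0.9019 and 95% intervals of the fold that lay between 0.778 and 1.26. Calls therefore comprised 1 of 9 members tested lower, beside 0.602% of all genes, and 0 higher, beside 0.58%. For the higher direction, 0 members had an unadjusted p under 0.05 (6.5% of all genes), and DESeq2 and limma-voom also called 0. In the lower direction 1 member had an unadjusted p under 0.05 (7% of all genes). Groups that did not overlap in either direction were found in 1 of 9 members (11.1%) and in 19.9% of all genes, so the share of members was not above the background.

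**Figure D2:**
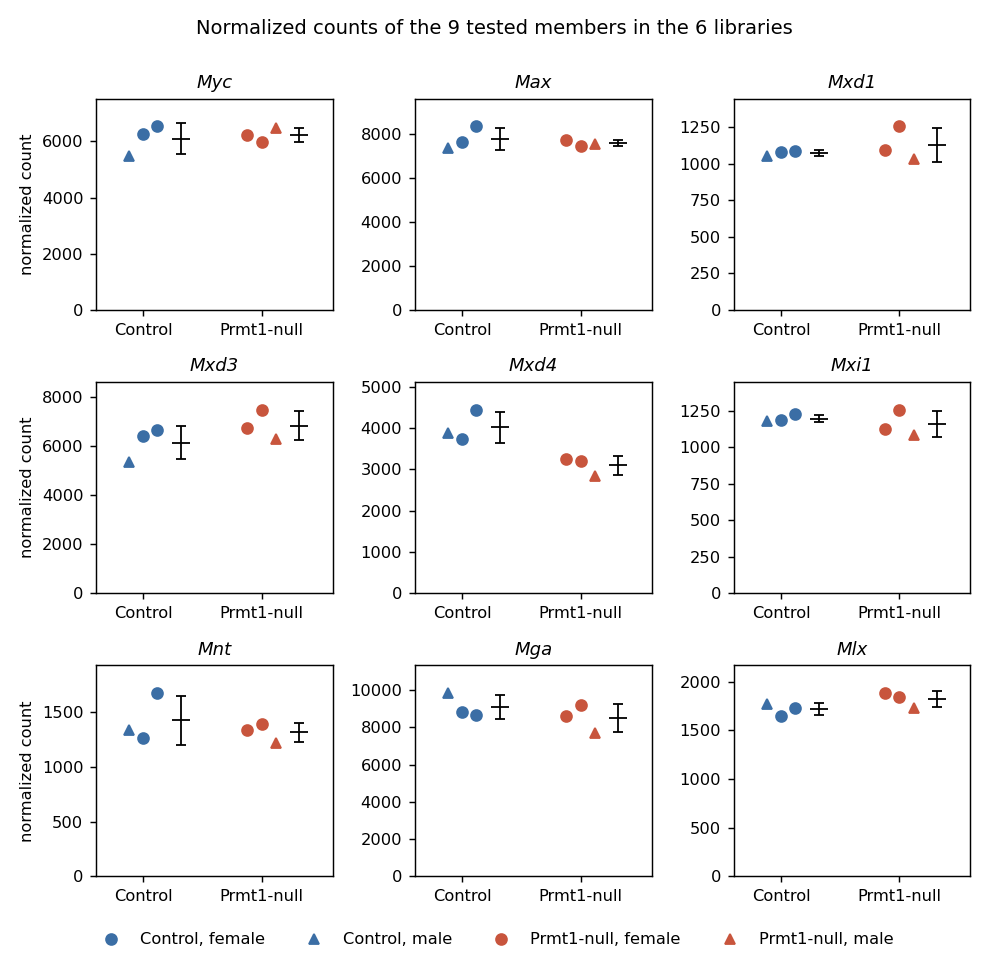
Normalized counts of the network genes in each library, by group, with the group mean and SD (n = 3); circles are females and triangles males. The 3 Prmt1-null libraries lie under all Control libraries for Mxd4, and the groups overlap for the other 8 genes tested.

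The call of Mxd4 depended on all 6 libraries. The log2 fold change stayed between -0.43 and -0.30 when each library was left out in turn, but the adjusted p then rose to 0.056 without Control 1, 0.0718 without Control 2, 0.0584 without Control 3, 0.111 without Prmt1-null 1, 0.143 without Prmt1-null 2 and 0.162 without Prmt1-null 3. Leaving out a library also changed the number of genes called among all genes, from 216 to between 31 and 340. With all libraries, DESeq2 gave Mxd4 an adjusted p of 0.000962 and limma-voom one of 0.0358. Within females, Mxd4 was lower in both Prmt1-null mice than in both Control mice (log2 difference -0.35), and in the single pair of males the log2 difference was -0.45. With 1 male in each group, sex and mouse cannot be told apart, so these differences do not show that the sexes agree.

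Mxd4 lies at chr5:34173883-34187720 (mm10, minus strand; ENSMUSG00000037235), where 6.06% of its exon bases are shared with Gm42846 on the opposite strand. Among the genes within 50 kb, which were listed after the values had been seen, Poln, the gene of a DNA polymerase, and Haus3, a subunit of the augmin complex of the mitotic spindle, lie on the same strand and overlap each other, with their 5′ boundaries 4434 and 4355 bases from the 3′ boundary of Mxd4. Poln rose from 143 ± 26 to 514 ± 72.6 normalized counts (log2 fold change 1.84, SE 0.177, adjusted p = 0.000439), and kept its call with each library left out (adjusted p of at most 0.0136). Haus3 measured 1589 ± 125 and 1232 ± 12.6 normalized counts with groups that did not overlap (log2 fold change -0.37, SE 0.094, adjusted p = 0.0794). On the other side of Mxd4, 7172 bases away, Zfyve28 had a log2 fold change of -0.27 with an SE of 0.47 (adjusted p = 0.8515).

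Myc, the activator, lies at chr15:61985391-61990374 (plus strand; ENSMUSG00000022346) and measured 5491.7, 6279.2 and 6533.7 normalized counts in Control libraries and 6230.9, 5968.9 and 6463.8 in Prmt1-null libraries. The Control group spanned the whole range of the Prmt1-null group, with Control 1 the lowest library. The fold was 1.02 with a 95% interval from 0.92 to 1.13 (log2 fold change 0.03, SE 0.069, adjusted p = 0.9019), so a change of Myc mRNA beyond that interval was not seen in either direction. Control 1 and Prmt1-null 3 were the 2 male mice. In females Myc was lower in both Prmt1-null mice than in both Control mice (log2 difference -0.07), and in the pair of males it was higher (log2 difference 0.23). The interaction of sex and genotype did not pass in edgeR (adjusted p = 0.58; 0.0242 before adjustment). Over all 18268 genes, 28 passed that test after adjustment and 1477 before it. With 1 male in each group, sex and mouse cannot be told apart there.

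Mycn, the neural paralog of Myc, was close to absent from the counts. Its gene (chr12:12936093-12941914, minus strand; ENSMUSG00000037169) received 8, 4 and 0 counts in Control libraries and 2, 0 and 2 in Prmt1-null libraries. Only Control 1 and Control 2 exceeded 3 counts, the limit that a count of 0 allows, which corresponds to 0.0144 to 0.0199 FPKM depending on the library. Mycn did not pass the filter on low counts, so it has no test among the 18268 genes. With the filter removed, edgeR gave an adjusted p of 0.801, and a difference was not detectable at this depth.

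The dimer partners Max and Mlx differed little. Max (chr12:76937269-76962201, minus strand; ENSMUSG00000059436), the obligate partner of MYC and of the MXD proteins, measured 7384.6, 7633 and 8356.1 normalized counts in Control libraries and 7754.8, 7473.3 and 7580.1 in Prmt1-null libraries, a fold of 0.976 with an interval from 0.89 to 1.07 (adjusted p = 0.8533). All Prmt1-null values fell inside the Control range. Mlx (chr11:101087277-101092207, plus strand; ENSMUSG00000017801) measured 1772.6, 1653.2 and 1727.6 normalized counts in Control libraries and 1885.3, 1844.6 and 1728 in Prmt1-null libraries. Prmt1-null 1 and 2 were the highest libraries for Mlx, and the groups overlapped through Prmt1-null 3 (fold 1.06, interval 0.937 to 1.2, adjusted p = 0.7289). Of the exon bases of Mlx, 19.26% are shared with Psmc3ip on the opposite strand, and whether counting used strand was not given.

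Mxd3, the MXD gene known for its expression in dividing cells, had a positive log2 difference that did not pass the test. It measured 5361.7, 6388.9 and 6650.5 normalized counts in Control libraries and 6733.1, 7478 and 6288 in Prmt1-null libraries. Prmt1-null 1 and 2 stood above all Control libraries, and Prmt1-null 3 stood under Control 2 and 3 (log2 fold change 0.16, SE 0.084, adjusted p = 0.4504, fold 1.11 with an interval from 0.983 to 1.26). Without Control 1 the log2 fold change was 0.07, without Prmt1-null 2 it was 0.09, and with any other library left out it was at most 0.22. Mxd3 (chr13:55325168-55329823, minus strand; ENSMUSG00000021485) shares 4.43% of its exon bases with Prelid1 on the opposite strand. Prelid1 received 124890 counts over the 6 libraries, against 4413 to 8112 for Mxd3 in each, and if counting ignored strand, reads of the shared bases could not be told apart.

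Mxd1 and Mxi1, the MXD genes at the lowest level, did not pass the test. Mxd1 (chr6:86647042-86669161, minus strand; ENSMUSG00000001156), known for its induction as cells differentiate, measured 1053.4, 1085.2 and 1086.4 normalized counts in Control libraries and 1097.6, 1256.5 and 1031.3 in Prmt1-null libraries (fold 1.05, interval 0.898 to 1.23, adjusted p = 0.8253). The Control libraries lay close together, with a coefficient of variation of 1.74%, and the Prmt1-null libraries spread on both sides of them (10.3%). Mxi1 (chr19:53310518-53375810, plus strand; ENSMUSG00000025025) measured 1176.1, 1183.5 and 1226.3 normalized counts in Control libraries and 1125.9, 1255.5 and 1084.2 in Prmt1-null libraries (fold 0.967, interval 0.834 to 1.12, adjusted p = 0.8743). Its highest and its lowest library were both Prmt1-null. Mxi1 shares 2.84% of its exon bases with Gm10197 on the opposite strand.

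Mnt and Mga, the large antagonists, were also not called. Mnt (chr11:74830920-74845725, plus strand; ENSMUSG00000000282), the most widely expressed MYC antagonist, measured 1331.6, 1258.1 and 1670.3 normalized counts in Control libraries and 1336.5, 1384.6 and 1212.8 in Prmt1-null libraries (fold 0.924, interval 0.778 to 1.1, adjusted p = 0.7345). Control 3 stood apart at the top, and the other 5 libraries were mixed. Mga (chr2:119897228-119969581, plus strand; ENSMUSG00000033943), the scaffold of PRC1.6, measured 9853.4, 8845.5 and 8644.8 normalized counts in Control libraries and 8594.1, 9181.5 and 7694.5 in Prmt1-null libraries (fold 0.932, interval 0.834 to 1.04, adjusted p = 0.603). The highest library, Control 1, and the lowest, Prmt1-null 3, were the 2 males, and the log2 difference was 0.02 in females and -0.36 in males. With 1 male in each group, sex and mouse cannot be told apart for Mga either. With a library left out, the log2 fold change of Mga lay between -0.1568 and -0.0368.

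**Figure D3:**
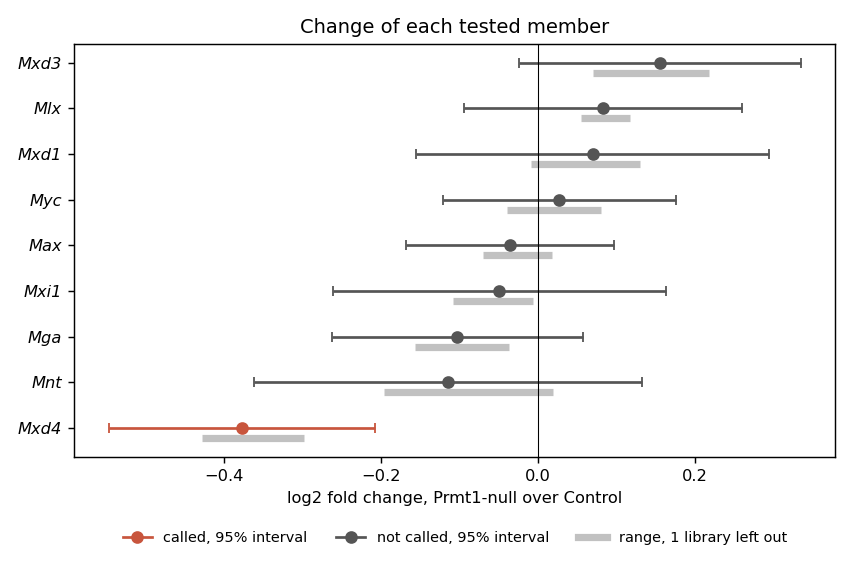
Log2 fold change of each member tested (Prmt1-null minus Control) with its 95% interval from edgeR; a value of 0 is no difference. The interval of Mxd4, centred at -0.38, excludes 0, and the intervals of the other 8 members include it.

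Sums and ratios of FPKM describe the balance of the network, and they are given with no test because the genes were chosen with earlier results known. The activators Myc and Mycn summed to 40.5 ± 3.58 FPKM in Control and 41.3 ± 1.65 in Prmt1-null libraries, and the 6 antagonists (4 MXD genes, Mnt and Mga) to 77.4 ± 5.58 and 79.6 ± 6.63. The ratio of Myc to Max was 1.04 ± 0.0518 and 1.08 ± 0.0397, and that of Myc to the summed antagonists 0.523 ± 0.0132 and 0.522 ± 0.064. The latter varied most among Prmt1-null libraries, from 0.459 to 0.587, while the Control libraries lay between 0.51 and 0.536. Both sides of the balance thus overlapped between groups.

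The makeup of the 4 MXD transcripts is likewise given as a description, and the size of each share depends on the exon lengths used. Their sum was 61.1 ± 5.74 FPKM in Control and 64.5 ± 5.44 in Prmt1-null libraries. Mxd3 made up 74.4%, 77.8% and 76.6% of the MXD sum in Control libraries and 80.2%, 81.1% and 80.6% in Prmt1-null libraries. Mxd4 made up 15%, 12.7% and 14.3% in Control libraries and 10.8%, 9.65% and 10.2% in Prmt1-null libraries. Neither share overlapped between groups, which for the counts of single genes held in 19.9% of all genes tested. The share of Mxi1 was 5.19% ± 0.415 and 4.74% ± 0.0851, also without overlap, and that of Mxd1 was 4.51% ± 0.36 and 4.46% ± 0.0955. The shares sum to the same total in every library, so they are not separate observations.

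**Figure D4:**
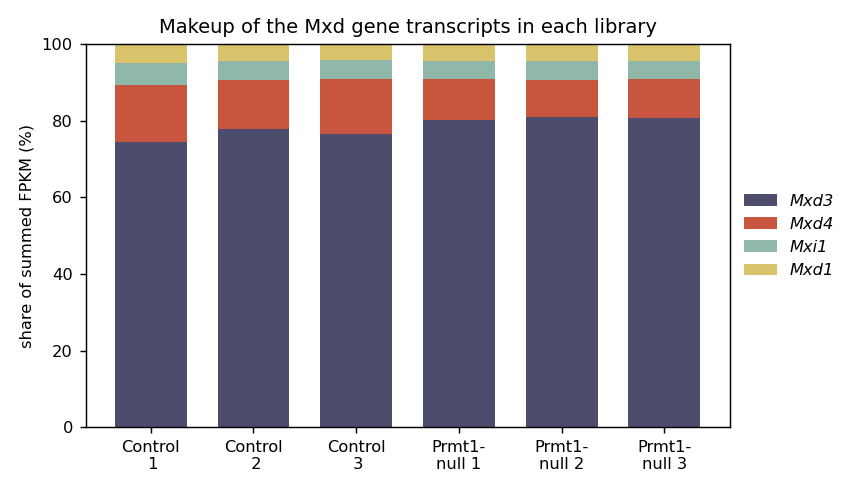
Share of Mxd1, Mxd3, Mxd4 and Mxi1 in the summed MXD level of each library (percent of FPKM). Mxd3 takes 74.4% to 77.8% in the Control and 80.2% to 81.1% in the Prmt1-null libraries, and Mxd4 takes less in each Prmt1-null library than in any Control library.

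MYC target genes, mostly genes of the nucleolus, translation and metabolism, were higher in Prmt1-null iGBs more often than lower, by small amounts. Of 67 tested of 68, 49 had a positive log2 fold change (73.1%, against 49.9% of all genes) and the median was 0.12, against -0.0008 over all genes. In edgeR 1 was called higher (1 of 67, beside 0.58% of all genes), against 3 by DESeq2 (beside 1.82% of all genes), 2 by limma-voom (0.701%), 3 with no count filter (1.24%), 3 with sex as a covariate (0.794%) and 0 to 2 with a library left out. None was called lower by edgeR, DESeq2 or limma-voom (1 at an unadjusted p under 0.05 in edgeR), while 17 had an unadjusted p under 0.05 in the higher direction (25.4%, against 6.5% of all genes). Groups did not overlap for 20 of them, 18 higher and 2 lower (29.9%, against 19.9% of all genes). By library, the median log2 level relative to the Control mean was -0.01, 0.00 and 0.01 in Control and 0.05, 0.11 and 0.14 in Prmt1-null libraries. The median of 4 plasma cell markers on the same scale was 0.15, 0.35 and 0.24 in the Prmt1-null libraries and that of 8 fibroblast feeder markers was 0.23, 0.16 and 0.34 (Control libraries -0.05 to 0.03 and -0.08 to 0.19), with a positive log2 fold change in 4 of 4 and 7 of 8. Their part in the level of the MYC target genes was not tested. The study had tested a similar published set on these libraries, so the direction of this list is not independent evidence. With each library left out in turn, the median stayed between 0.10 and 0.15 and the number of positive genes between 45 and 53. The number at an unadjusted p under 0.05 in the higher direction then lay between 11 and 20.

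The MYC target called higher was Pa2g4 (chr10:128557766-128565987), whose product EBP1 binds ribosomes and controls proliferation. It measured 7843.9, 7856 and 8279 normalized counts in Control and 9380.8, 10072 and 10169 in Prmt1-null libraries (log2 fold change 0.31, SE 0.059, adjusted p = 0.02681). Each Prmt1-null library stood above all Control libraries. The adjusted p was 0.0556, 0.14, 0.0629, 0.165 and 0.117 without Control 1, Control 2, Prmt1-null 1, Prmt1-null 2 and Prmt1-null 3, respectively. Ncl, the nucleolar protein nucleolin, measured 13099 ± 787 and 16024 ± 894 normalized counts (log2 fold change 0.29, SE 0.066, adjusted p = 0.05269). Tfrc, the transferrin receptor, measured 2661 ± 178 and 3342 ± 258 (log2 fold change 0.33, SE 0.077, adjusted p = 0.05688). The E-box CACGTG was found in 24.3% of 70 promoter windows of the MYC target genes, against 9.55% of the windows of genes tested and 7.15% of all windows. Among the other gene lists it was found in 18.8% of windows of genes that MYC represses (3 of 16), 16.7% for other network genes (1 of 6), 11.1% for MLX-MondoA targets (1 of 9), 10.3% for turnover genes (3 of 29), 7.14% for PRC1.6 partners (1 of 14), 6.25% for cofactors (1 of 16) and 5% for SIN3-HDAC genes (1 of 20). Where a list had 1 such window, its percentage follows from the number of windows.

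Of the genes that MYC is known to repress, edgeR called 0 in the main fit, beside 0.58% higher and 0.602% lower over all genes. With no count filter, edgeR called 1 higher (Cdkn1a, adjusted p = 0.00135), beside 1.24% of all genes. Cdkn1a had also passed the filter, so the 2 fits differ in more than the genes they hold. Of 11 tested of 13, 5 had a positive and 6 a negative log2 fold change, and 2 higher and 1 lower had an unadjusted p under 0.05 (18.2% higher, beside 6.5% higher and 7% lower over all genes). The median was -0.04, and 0.07 without Control 3; with a library left out, 3 to 7 were positive. DESeq2 called 1 higher (Cdkn1a, adjusted p = 0.00499), beside 1.82% of all genes, and limma-voom 0, and neither called any lower. Cdkn1a, which encodes the cell cycle inhibitor p21, measured 635.43, 724.32 and 630.23 normalized counts in Control and 1042.9, 774.34 and 1110.7 in Prmt1-null libraries, without overlap (log2 fold change 0.56, SE 0.14, adjusted p = 0.07488 in edgeR). Ndrg1 had a log2 fold change of 0.31 (adjusted p = 0.2291), and Cdkn2c, encoding the inhibitor p18, one of -0.23 (adjusted p = 0.3697).

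Among 24 genes that control MYC protein turnover, 16 had a positive (66.7%, against 49.9% of all genes) and 8 a negative log2 fold change, and 1 was called higher, beside 0.58% of all genes. The median was 0.06 with all libraries, 0.03 without Control 2, 0.02 without Prmt1-null 2 and 0.09 without Prmt1-null 1. This was Pim2 (chrX:7878262-7883432), a kinase of the PIM family, whose members are known to phosphorylate and stabilize MYC. Pim2 measured 3193, 3806.9 and 3802.3 normalized counts in Control and 5484.7, 5405.7 and 4605.4 in Prmt1-null libraries, with no overlap (log2 fold change 0.52, SE 0.084, adjusted p = 0.009208). Without Prmt1-null 1 or Prmt1-null 2 the adjusted p was 0.0731 or 0.0739. Of the 24 genes, 3 were higher at an unadjusted p under 0.05 (12.5%, beside 6.5% of all genes) and 2 were lower (beside 7% of all genes). None was called lower by edgeR, DESeq2 or limma-voom. Gsk3b, the kinase that marks MYC for degradation, had a log2 fold change of -0.20 (adjusted p = 0.1811), and Ppp2r1a, the scaffold of the phosphatase PP2A, one of 0.16 (adjusted p = 0.2736). The list thus mixes genes that stabilize MYC with genes that lead to its degradation, so a shared sign has no single reading.

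The corepressors and cofactors of the network had no called gene by edgeR, DESeq2 or limma-voom, where 1.18%, 4.08% and 1.36% of all genes were called. Their counts at an unadjusted p under 0.05 stand beside 6.5% higher and 7% lower over all genes. Of 18 SIN3-HDAC genes, through which MXD and MNT repress, 9 had a positive and 9 a negative log2 fold change, with 0 higher and 2 lower at an unadjusted p under 0.05. Those were Suds3 (log2 fold change -0.17, adjusted p = 0.3222) and Sin3a, which encodes the scaffold that MXD proteins contact (-0.12, adjusted p = 0.352). Arid4b, another subunit, had a log2 fold change of -0.17 (adjusted p = 0.3735). Of 14 partners of MGA in PRC1.6, 6 were positive and 8 negative, and 1 reached an unadjusted p under 0.05, the E3 ligase gene Ring1 (log2 fold change 0.36, adjusted p = 0.2345), followed by L3mbtl2 (0.24, adjusted p = 0.3928) and Yaf2 (0.13, adjusted p = 0.4524). Of 17 MYC cofactors, 9 were positive and 8 negative, with 2 higher (11.8%) and 1 lower at an unadjusted p under 0.05. The lower one was Ccnt1, the cyclin of the elongation kinase P-TEFb (log2 fold change -0.17, adjusted p = 0.1869), and the higher ones were Ruvbl1, an ATPase of chromatin remodellers (0.36, adjusted p = 0.2449), and Ctr9, a subunit of the PAF complex (0.20, adjusted p = 0.2668).

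On the MLX side, 4 of the listed MLX-MondoA targets were tested and 1 was called lower, beside 0.602% of all genes. Klf10 (chr15:38291463-38300706), a zinc finger repressor known for its induction by TGF-β, measured 803.1, 815.63 and 766.86 normalized counts in Control and 556.88, 490.42 and 598.36 in Prmt1-null libraries. The groups did not overlap (log2 fold change -0.54, SE 0.12, adjusted p = 0.04471). Leaving out any 1 library ended the call, with an adjusted p of 0.0832, 0.167 and 0.0519 without Control 1, 2 and 3 and of 0.175, 0.252 and 0.0811 without Prmt1-null 1, 2 and 3. Txnip, the target most tied to MondoA, measured 39628 ± 4140 and 40204 ± 932 normalized counts (log2 fold change 0.02, adjusted p = 0.9333), and Arrdc3, an arrestin-domain gene, had a log2 fold change of -0.27 (adjusted p = 0.4951). With a library left out, that of Arrdc3 lay between -0.393 and -0.115. Of the other network genes, Mlxip, which encodes MondoA (log2 fold change 0.04, adjusted p = 0.8632), Mycl (0.23, adjusted p = 0.8214) and Bmyc (0.06, adjusted p = 0.7694) were tested. An unadjusted p under 0.05 was found for 0 of these 3, beside 6.5% higher and 7% lower over all genes. EdgeR, DESeq2 and limma-voom called 0 of them, beside 1.18%, 4.08% and 1.36% of all genes. Of the exon bases of Bmyc, 62.77% are shared with the antisense gene A230005M16Rik. Opposite-strand genes also share 19.4% of the exon bases of Txnip (Gm15441), 17.21% of L3mbtl2 (Chadl), 7.68% of Cdkn1a, 7.59% of Ccnt1, 6.35% of Ndrg1 (Gm17035), 3.81% of Sin3a (Man2c1os), 3.21% of Mlxip and 1.51% of Arid4b. These are shares of bases, and the share of counts that the overlaps affect is not known.

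**Figure D5:**
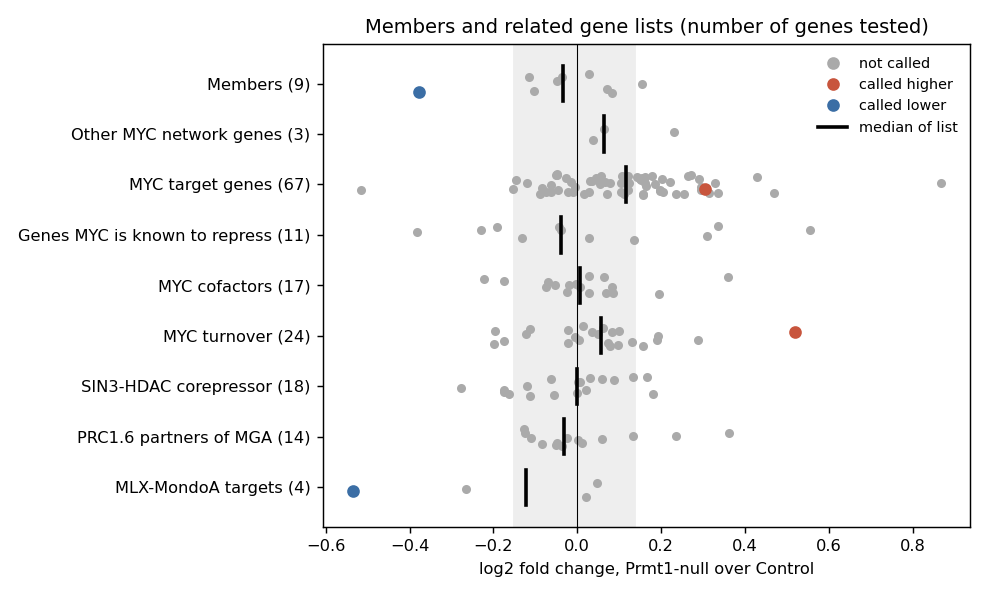
Log2 fold change of each gene tested (Prmt1-null minus Control) in the members and the 8 lists around them, with the median of each list; the grey band spans the 25th to 75th percentile of all genes tested (-0.15 to 0.14). The band describes single genes and is no yardstick for a median. The median of the MYC target genes is 0.12, with more points to the right of 0 than to the left, and 1 point each among the members and the MLX-MondoA targets is called lower.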

How the data were processed

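Splenic B cells of 6 mice were cultured as iGBs, and rRNA-depleted, stranded RNA libraries were sequenced. The authors deposited a table of raw exon counts per gene, made with Trimmomatic 0.32, STAR 2.3.0e (mm10, primary alignments) and featureCounts 1.4.4 on Ensembl genes. The strand setting of the counting is not given in the sources used here, so opposite-strand exon overlaps of the members and of the list genes named are stated. Each gene count rests on totals of 45343250 to 62774232 per library. The 95% intervals of folds come from the edgeR fit and include the spread between mice, whereas the floor of 3 counts covers counting error only.

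Genes on chromosome Y (398) were left out, because the sexes differ. The counts were normalized by TMM, filtered with filterByExpr (minimum count 10) and tested with the quasi-likelihood test of edgeR 4.0.16 (R 4.3.3) on all 6 libraries without covariates, with Benjamini-Hochberg adjustment over 18268 genes. Normalized counts are on the scale of the mean library. The SE is the absolute log2 fold change divided by the root of F. FPKM was computed from the counts and GENCODE M21 exon lengths, with 37693 genes matched by ID and 803 by symbol. Promoter sequences are from RefSeq (mm10). The fits were tested on simulated data.

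Alternatives were DESeq2 1.42.0 (the tool of the study), limma-voom (limma 3.58.1), size factors of DESeq2, no count filter, a replicate block, sex as a covariate, chromosome Y kept, no minimum mean count, and each library left out. The members and lists were chosen with earlier results of these data known. Named genes are all members, Prmt1, and the called genes and the 3 genes of smallest p of each list, while cell type markers are given as sums. Genes whose exons overlap those of a member are also named, and the neighbours of Mxd4 were chosen after their values were seen.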

Additional observations from a re-analysis of the deposited data

How the results depend on the processing

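With all 6 libraries, the 9 members tested kept their direction under DESeq2, limma-voom, DESeq2 size factors, no count filter, the replicate block, sex as a covariate and chromosome Y kept, and the log2 fold change of Mxd4 lay between -0.38 and -0.37. The cause of the changes that follow was not tested. Under the replicate block, 0 members were called lower (Mxd4 -0.38, adjusted p = 0.0641) and 0 MLX-MondoA targets were called lower (Klf10, adjusted p = 0.0821). Same-numbered libraries came from different mice, and their deviations correlated at -0.202, 0.137 and -0.235 over 13092 genes, so the numbers were not taken as pairs. The replicate block changed none of the other counts of list members called by over 1.5 times. MYC target genes called higher numbered 3 under DESeq2, 2 under limma-voom, 3 with no filter and 3 with sex as a covariate, and genes repressed by MYC called higher numbered 1 under DESeq2 and 1 with no filter. Over all genes, calls numbered 216, against 746 under DESeq2, 675 with no filter, 151 under the block and 31 to 340 with a library left out. With a library left out, members called lower numbered 0 to 0, MYC targets called higher 0 to 2, turnover genes called higher 0 to 1 and MLX-MondoA targets called lower 0 to 0. Values near 0 changed sign for Myc without Control 1 (-0.039) and without Prmt1-null 3 (-0.0014), Max without Control 3 (0.0185), Mxd1 without Prmt1-null 2 (-0.009), Mnt without Control 3 (0.0194), Mycl without Prmt1-null 2 (-0.027), Mlxip without Control 1 (-0.0153) and Txnip without Control 1 (-0.0472), none of them called. The ranges were -0.039 to 0.0801 for Myc, -0.069 to 0.0185 for Max, -0.009 to 0.13 for Mxd1, -0.1962 to 0.0194 for Mnt, -0.027 to 0.3676 for Mycl, -0.0153 to 0.1114 for Mlxip and -0.0472 to 0.101 for Txnip. Mycn was tested only with the filter removed (adjusted p = 0.801 in edgeR), and its counts limit what can be seen.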
